A study of Mus musculus with 9 samples.

Results

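Genes that encode cytokine receptor chains were examined for H3K27ac, an acetylation of histone H3 that marks active enhancers and promoters. The 10 members, Il2ra, Il2rb, Il4ra, Il21r, Il6ra, Il6st, Il12rb2, Il18r1, Il10ra and Ifngr1, were listed by name, and all lie on autosomes. The list was not drawn by a rule on their H3K27ac, but earlier results of these data were known when it was made. They were 10 of the 15952 autosomal protein-coding genes with islands of both genotypes, out of 21281 annotated. For each gene, H3K27ac-enriched islands that overlapped the gene body or the 50 kb upstream of its transcription start site (TSS) were collected from the WT and the dKO list, and all 10 windows held islands of both lists.

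H3K27ac ChIP-seq was done on naive CD8+ T cells from the spleen, to ask what loss of the transcription factors Tcf1 (encoded by Tcf7) and Lef1 does to the mark. WT cells came from hCD2-Cre+ Rosa26GFP Tcf7+/+ Lef1+/+ mice and dKO cells from hCD2-Cre+ Rosa26GFP Tcf7 fl/fl Lef1 fl/fl mice, so both genotypes carried the Cre transgene, which is most active in mature peripheral T cells, and the GFP reporter that marks cells in which Cre has acted. Cells of both genotypes were sorted as GFP+ TCRbeta+ CD62Lhi CD44lo-med CD8+ from mice of both sexes on the C57BL/6 background, 6 to 12 weeks old. There were 4 WT and 3 dKO H3K27ac samples and 1 input per genotype, but the authors pooled the samples of a genotype before calling islands, so that each gene has 1 value per genotype and no difference below has a replicate check.

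Cytokine receptors are built from a chain that binds the cytokine and a chain, often shared by several receptors, that carries the signal. Il2ra and Il2rb with the common gamma chain form the IL-2 receptor, whose alpha chain is low on resting T cells and is induced by activation, and Il4ra and Il21r also pair with the common gamma chain. Il6ra binds IL-6 and signals through gp130, encoded by Il6st. Il12rb2 and Il18r1 are chains of the IL-12 and IL-18 receptors, which drive type 1 responses, and Il10ra and Ifngr1 are ligand-binding chains of the class II family.

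The DNA at which these loci meet the study's other lists is shown first. The study pairs 4 sites of lower chromatin accessibility (ChrAcc) in dKO cells with a member, and H3K27ac was read at each. These are 2 cluster C2 sites upstream of Il2ra, 1 C2 site in an intron of Il12rb2 and 1 C4 site 4.9 kb beyond the end of Il6ra, outside its window. Each is printed as the 200 bases around its centre on the plus strand of mm9. The last line is the 250 bases upstream of the RefSeq start of Il6st, the member with the largest fall, which RefSeq gives on GRCm38.p6 and which was placed on mm9 by exact match. Capitals mark the TCF/LEF core CTTTGA, searched on both strands.
Il2ra site at -25.8 kb, chr2:11538501-11538700: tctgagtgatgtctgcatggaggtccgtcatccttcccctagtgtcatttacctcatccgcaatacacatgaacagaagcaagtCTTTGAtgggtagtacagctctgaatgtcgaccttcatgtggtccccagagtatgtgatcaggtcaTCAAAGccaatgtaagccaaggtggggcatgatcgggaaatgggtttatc
Il2ra site at -23.0 kb, chr2:11541341-11541540: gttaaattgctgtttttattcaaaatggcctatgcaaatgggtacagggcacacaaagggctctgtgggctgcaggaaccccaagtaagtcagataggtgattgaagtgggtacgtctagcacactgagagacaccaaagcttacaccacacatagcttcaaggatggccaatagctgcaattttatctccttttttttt
Il12rb2 site at +58.2 kb, chr6:67267925-67268124: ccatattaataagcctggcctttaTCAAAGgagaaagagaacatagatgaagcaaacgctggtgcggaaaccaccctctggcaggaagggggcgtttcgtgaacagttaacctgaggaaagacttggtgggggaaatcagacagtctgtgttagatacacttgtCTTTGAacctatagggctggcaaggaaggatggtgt
Il6ra site at +48.9 kb, chr3:89668093-89668292: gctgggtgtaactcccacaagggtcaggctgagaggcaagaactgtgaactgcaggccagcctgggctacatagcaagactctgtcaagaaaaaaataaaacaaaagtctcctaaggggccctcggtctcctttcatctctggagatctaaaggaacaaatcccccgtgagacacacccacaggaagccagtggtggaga
Il6st promoter, chr13:113254028-113254277: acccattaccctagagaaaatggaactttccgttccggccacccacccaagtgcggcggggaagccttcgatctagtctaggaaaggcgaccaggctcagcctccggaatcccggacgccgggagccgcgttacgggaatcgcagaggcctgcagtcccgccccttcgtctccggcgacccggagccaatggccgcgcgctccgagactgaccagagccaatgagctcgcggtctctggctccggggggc

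The more distal Il2ra site and the Il12rb2 site each held the core 2 times, while the other Il2ra site, the Il6ra site and the Il6st promoter held none. Over all listed sites taken at 200 bases, 44 of 80 C2 sites (55%) and 43 of 98 C4 sites (43.9%) held it. Each position was counted once, under the first list that held it, and these totals differ from the numbers of sites in the study's text. Of the 250 bases upstream of every autosomal protein-coding gene, 13.3% held the core, and 0 of the 10 member promoters did. The STAT element TTCNNNGAA, which is its own reverse complement, was present upstream of 6.8% of all genes and of 1 member, Il12rb2, and no member promoter held both. Of the 10 RefSeq starts described next, 2 had the STAT element upstream, that of Il12rb2 and the most downstream of 3 at Il18r1, which held it 2 times. A match describes the letters only. RefSeq promoters were found for 8 members, and their 10 starts lay within 0.5 kb of the annotated starts except for Il6st, whose RefSeq start lay at -10.9 kb from the annotated one. The 250 bases at that RefSeq start were 66% G or C, against 35.2% at the annotated start. Distances below are from the annotated starts. A window drawn from the RefSeq start of Il6st met the same number of islands and the same counts.

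The lists summed to 82668007 counts over 65563 WT islands and 57665047 counts over 82213 dKO islands, and counts were therefore divided by these totals (CPM, counts scaled to the summed island counts of a list). Before scaling, a covered kb held a mean of 210.5 counts in the WT list and 134.3 in the dKO list. Because an island's count grows with its width and because neighbouring islands fuse or split between the lists, the log2 ratio of dKO to WT is given both for counts and for counts per covered kb, each scaled by the list totals. A gene or region was called higher or lower from a ratio of 1.5, which is 0.58 on the log2 scale, and 95% intervals cover counting error alone. The targeted genes were examined as a check on the labels. Tcf7 held 62899 counts in WT and 49281 in dKO, a log2 ratio of 0.17, and Lef1 held 63497 and 36089, a log2 ratio of -0.30. Islands do not report the deletion of exons, so this does not test the labels.

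The promoters of all 9 T and CD8 markers, Cd3e, Cd8a and Lck among them, lay in islands of both lists, at 274 to 486 counts per kb in WT and 256 to 338 in dKO. Islands over the promoters of 6 naive T cell markers summed to 1912 CPM in WT and 1173 CPM in dKO, and islands over 7 of 8 memory and effector markers summed to 422 and 707 CPM. That sum rested on few genes, with 5458 and 14276 counts at the Ccl5 promoter, and the median log2 ratio over the windows of the 8 was 0.18, with Cxcr3 at -0.71 and Eomes at -0.32. Markers of other cells had islands too, with B cell markers at 373 and 396 CPM for 5 of 6 promoters, CD4 or Treg markers at 141 and 147 CPM for 4 of 4, NK markers at 177 and 236 CPM for 2 of 5 (Ncr1 had no island), and myeloid markers at 50.3 and 41.1 CPM for 6 of 6. The part of naive and memory or effector cells in the results below was not tested. In pooled bulk cells, fewer cells that carry the mark and less of the mark per cell cannot be told apart.

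Across the 10 genes, Il6st had less H3K27ac in dKO cells and no other member passed a ratio of 1.5 in either direction. By counts, 0 members were higher in dKO, against 11.7% of all genes, and 1 was lower, against 10.3% of all genes. By counts per kb, 0 were higher, where the background was 0.357%, and 1 was lower, where it was 9.27%. In all, 5 of the 10 members lay above a count ratio of 1, compared with 48.6% of all genes. Per kb, 4 of the 10 lay above 1, and of all 15952 genes 3230 did, so that a ratio per kb near 1 is above that of most genes. The median log2 ratio of the members was -0.01 by counts and -0.02 per kb, and over all genes it was -0.01 and -0.16. The shares of members past a ratio of 1.5 are thus near the background, and the counts alone say nothing particular about cytokine receptors.

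**Figure D1:**
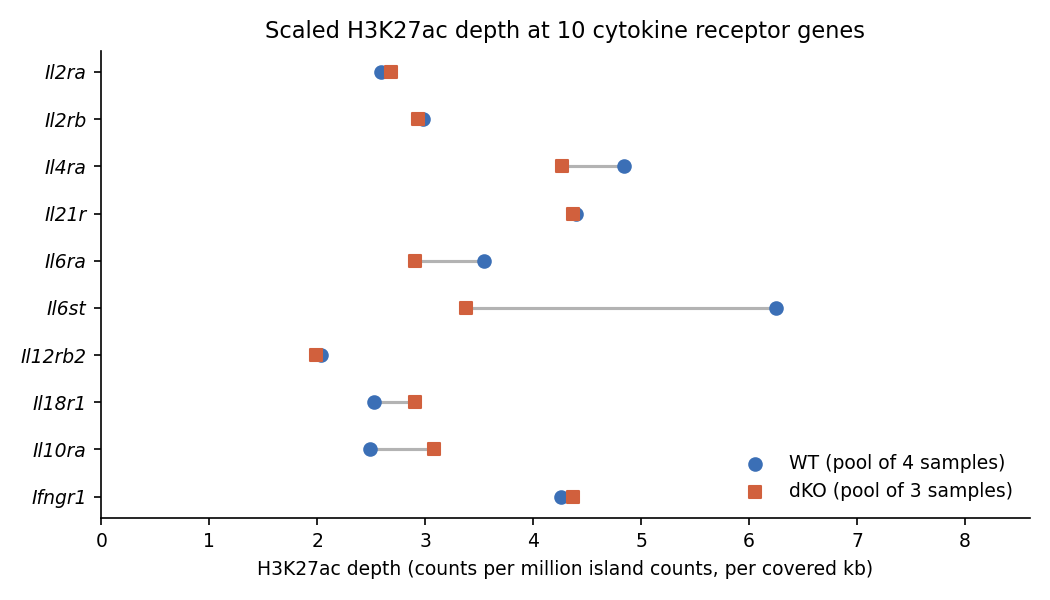
Scaled H3K27ac depth at each of the 10 genes, in CPM per covered kb, with WT (blue circles) and dKO (orange squares) joined by a grey line. Each point is 1 pooled value. Il6st has the highest WT depth and the longest line, while the points of Il2ra, Il2rb, Il21r, Il12rb2 and Ifngr1 nearly touch.

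Il6st (mm9 chr13:113265216-113297068, plus strand), which encodes the gp130 chain shared by the IL-6 family of receptors, was the most deeply marked of the 10 in WT. Its 7 WT islands held 43510 counts over 84.2 kb (516.7 counts per kb), and its 13 dKO islands held 19418 counts over 99.6 kb (195 counts per kb). After scaling, WT was 1.56-fold higher by counts, a log2 ratio of -0.64 (95% interval -0.67 to -0.62), and the log2 ratio per kb was -0.89 (-0.91 to -0.86). The dKO islands were more numerous, wider in all and shallower. Its WT depth exceeded that of 97.3% of genes and its dKO depth that of 88.1%. Of all genes, 8.47% had a lower count ratio and 2.73% a lower ratio per kb.

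The deepest islands at Il6st lay upstream of the annotated start and held less in dKO. The first ran from -65.4 to -44.4 kb in WT with 18127 counts (863.2 counts per kb), and its dKO counterpart, of nearly the same borders, held 6121 counts (306.1 counts per kb). This pair had a log2 ratio per kb of -0.98 (-1.02 to -0.93). The next pair, at about -38 kb, held 597.9 counts per kb in WT and 265 in dKO (-0.65, -0.72 to -0.59). A small pair at -31.6 kb, 2.8 kb wide in both lists, held 540 and 317 counts (-0.25, -0.45 to -0.05). In WT, 1 island of 29.6 kb with 15199 counts covered both the RefSeq and the annotated start, whereas in dKO 3 islands with 5973 counts lay there (-0.83 by counts, -0.78 per kb). Since the widths of these pairs are nearly equal in the 2 lists, the falls are falls in depth. Inside the gene body, the region at 4.1 kb held 395 WT counts over 1.6 kb and 393 dKO counts over 3.6 kb, a log2 ratio of -0.66 per kb but 0.51 by counts, and the region at 9.7 kb gave 0.26 per kb. At 3 further places in the gene body dKO had islands of 88.9 to 109.2 counts per kb where WT had none. The region over the end of the gene and beyond showed -0.02 by counts and -0.15 per kb. No other protein-coding gene starts in the window, and its nearest neighbours are Ankrd55 upstream and Il31ra downstream.

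Il6ra (mm9 chr3:89673246-89717084, minus strand), the IL-6-binding chain, was also lower in dKO per covered kb, but by less. It held 26783 counts over 91.4 kb in WT (293 counts per kb) and 17737 counts over 106 kb in dKO (167.3 counts per kb). The log2 ratio was -0.07 by counts (-0.10 to -0.05) and -0.29 per kb (-0.32 to -0.26), and 31.2% of all genes had a lower ratio per kb. All 5 regions with islands of both lists had a ratio per kb below 0, from -0.30 at the promoter to -0.12 at about -12 kb. The 37.6 kb island over the 3' part of the gene had the same borders in both lists and held 11134 counts in WT and 6953 in dKO, a log2 ratio of -0.16 (-0.20 to -0.12). This island covers the C4 site printed above. A dKO island of 11.8 kb with 1152 counts, 97.6 counts per kb, had no WT counterpart and met a promoter of Atp8b2. Within the 19 regions of the WT-prepotent super enhancer (SE) that the study lists at Il6ra, the log2 ratio was -0.06 by counts and -0.28 per kb. That SE was chosen on these same libraries and is no independent evidence. Over the WT-specific hub, a cluster of differential chromatin interactions chosen on Hi-C data, it was -0.27 by counts and -0.35 per kb.

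**Figure D2:**
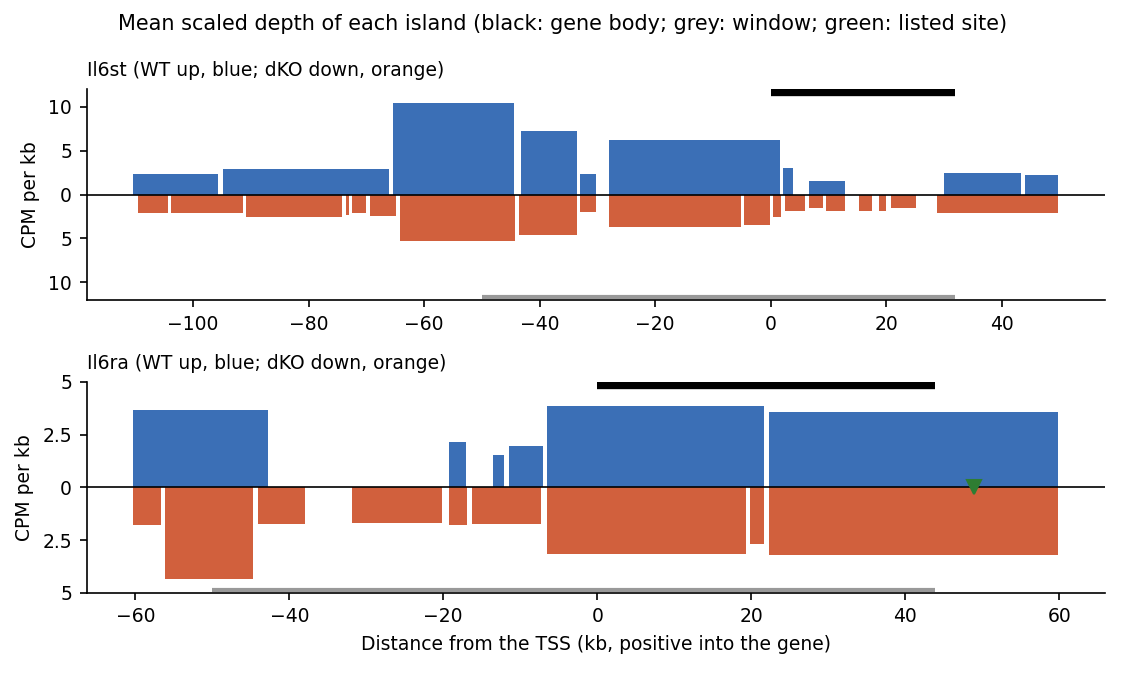
Islands at the genes of the IL-6 receptor by distance from the annotated TSS in kb, with scaled depth (CPM per covered kb) drawn upwards for WT in blue and downwards for dKO in orange. Black bars are gene bodies, grey bars the windows and the green triangle the listed C4 site. At Il6st the WT islands from -65.4 to -33.6 kb and from -28 to 1.6 kb stand well above their dKO counterparts and the small one between them does not, while at Il6ra the islands over the gene differ less.

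Among the chains that pair with the common gamma chain, 3 of 4 lay above a count ratio of 1 and none was called. Il2ra (mm9 chr2:11564419-11614818, plus strand), the IL-2 receptor alpha chain, held 13818 counts over 64.4 kb in 11 WT islands and 11877 counts over 76.8 kb in 8 dKO islands. Its log2 ratio was 0.30 by counts (0.27 to 0.34) and 0.05 per kb (0.01 to 0.08). Over the whole window, the higher scaled count thus came mostly with wider islands. Among these was the island over the promoter of the neighbouring gene Rbm17 (4.6 kb in WT, 11.2 kb in dKO). From -7.8 to 22.4 kb, over the start and the first part of the gene, dKO had a single island of 30.2 kb with 6633 counts, where WT had several. The merged region over the Il2ra promoter held 7903 WT counts over 29 kb and 6871 dKO counts over 32 kb. Its log2 ratio was 0.32 by counts and 0.18 per kb, so there width did not make up most of the difference.

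At the 2 C2 sites upstream of Il2ra, H3K27ac was weak in both genotypes. The more distal site, at -25.8 kb, lay in a WT island of 538 counts over 3.4 kb (158.2 counts per kb). The site at -23.0 kb lay just outside that island, so WT gave no value there. Both sites lay in 1 dKO island of 1696 counts over 14.4 kb (117.8 counts per kb). For the distal site the log2 ratio per kb was 0.09, and the count ratio reflects the width of the dKO island. Over the whole merged region, in which WT had a further island downstream, the log2 ratio was 0.80 by counts and 0.43 per kb. The promoters of the short annotated genes Gm17355 and Gm17490 also lie in it. The largest fall per kb in the Il2ra window (-1.22) was at the promoter of Rbm17, a splicing factor gene, where 1574 dKO counts spread over 11.2 kb and 2157 WT counts over 4.6 kb. By counts that region gave 0.07.

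Il2rb (mm9 chr15:78310983-78325496, minus strand), the beta chain shared by the IL-2 and IL-15 receptors, differed little, with 31172 WT and 21134 dKO counts and log2 ratios of -0.04 (-0.07 to -0.02) by counts and -0.02 per kb. Both lists covered nearly the whole window, WT with 2 islands over 126.4 kb and dKO with 1 of 125 kb. The merged region reached far beyond Il2rb and held the promoters of 7 other genes, Rac2 and Sstr3 among them, so that its value is not that of Il2rb alone.

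Il4ra (mm9 chr7:132695785-132722986, plus strand), the IL-4 receptor alpha chain, and Il21r (mm9 chr7:132746943-132777084, plus strand), the IL-21-binding chain, are neighbours on chromosome 7 and share islands. Il4ra held 44192 counts over 110.4 kb in WT (400.3 counts per kb) and 43608 counts over 177.2 kb in dKO (246.1 counts per kb). Its log2 ratio was 0.50 by counts (0.48 to 0.52), the highest of the 10, but -0.18 per kb. Of its WT counts, 26491 lay in 1 island of 65 kb, from -87.6 to -22.6 kb, over the promoter of Nsmce1. The merged region there gave -0.25 by counts and -0.20 per kb, so the window value is not that of Il4ra alone. A single dKO island of 106.2 kb with 26753 counts began upstream of Il4ra and ran past the end of Il21r. It met 5 WT islands, but the first of these, from -15.6 to -5.4 kb of the Il4ra start, only at its edge. When all islands of a merged region were summed in both lists, the log2 ratio of Il4ra was -0.01. Il21r held 34610 WT and 26753 dKO counts, with log2 ratios of 0.15 by counts (0.13 to 0.17) and -0.01 per kb. The region common to both genes gave 0.14 by counts and 0.02 per kb.

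**Figure D3:**
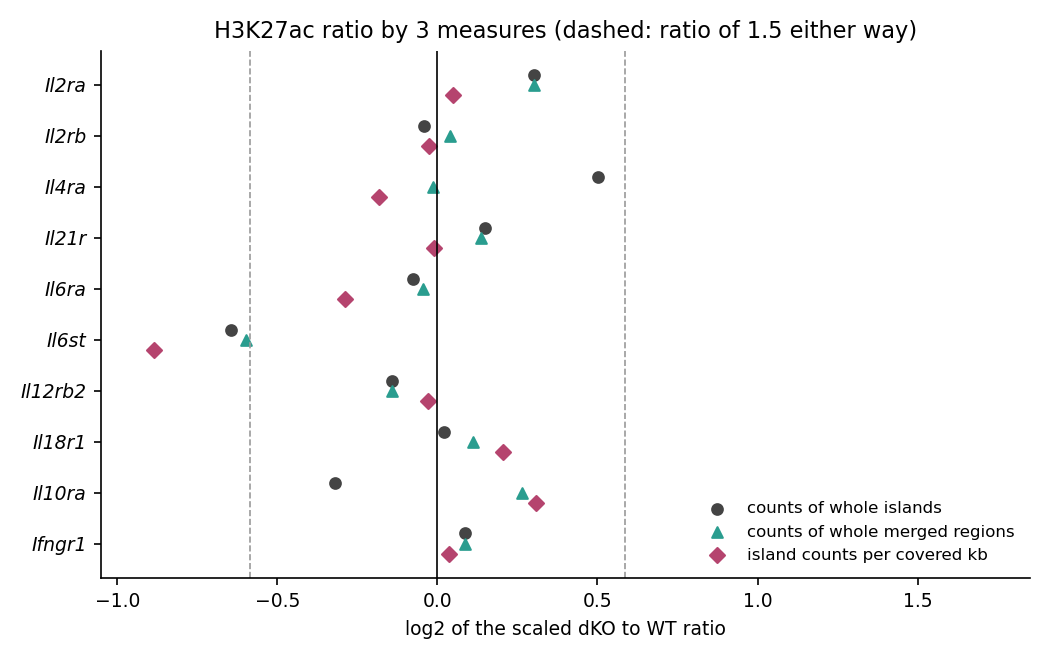
Log2 ratio of dKO to WT for each gene by 3 measures, the counts of whole islands over the window (grey circles), the counts of whole merged regions over it (green triangles) and island counts per covered kb (red diamonds). Dashed lines mark a ratio of 1.5 either way. The measures lie far apart for Il4ra and Il10ra, with opposite signs, and Il6st alone passes the line, by all 3.

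The type 1 chains Il12rb2 and Il18r1 had count ratios close to 1. Il12rb2 (mm9 chr6:67241312-67326182, minus strand), the signalling chain of the IL-12 receptor, was the least deeply marked of the 10, with 15418 counts over 91.8 kb in WT (168 counts per kb) and 9754 over 85 kb in dKO (114.8 counts per kb). Its log2 ratio was -0.14 by counts (-0.18 to -0.10) and -0.03 per kb. Its mark was broken into 19 WT and 20 dKO islands, and of 16 regions with islands of both lists 9 lay below 0 per kb and 7 above. The region over the promoter gave -0.12 by counts and 0.12 per kb, and a region over the start of a shorter transcript, 37.4 kb into the gene, gave 0.10 and 0.20. At the C2 site in the intron, WT had an island of 755 counts over 3.4 kb (222.1 counts per kb) and dKO an island of 692 counts over 6.6 kb (104.8 counts per kb). There the log2 ratio was 0.39 by counts (0.25 to 0.54) but -0.56 per kb, since the dKO island was wider and also took in a stretch that in WT belonged to the neighbouring island. With both WT islands counted the ratio was -0.17 by counts and -0.26 per kb. Over the WT-specific hub at Il12rb2 it was -0.22 and -0.17.

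Il18r1 (mm9 chr1:40522397-40557699, plus strand), the IL-18-binding chain, held 17226 counts over 82.6 kb in WT (208.5 counts per kb) and 12183 over 72.6 kb in dKO (167.8 counts per kb). Its log2 ratio was 0.02 by counts (-0.01 to 0.05) and 0.21 per kb (0.17 to 0.24), and 96.4% of genes had a lower ratio per kb. At the upstream edge, a WT island of 11.6 kb was counted whole. A dKO island of 8.2 kb with 805 counts in the same place lay outside the window. With counts prorated to the window the ratio per kb was 0.14. All 8 regions with islands of both lists lay above 0 per kb, from 0.04 over the promoter to 0.48 at -47.6 kb. The latter was an island pair of nearly the same borders with 313 WT counts over 2 kb and 274 dKO counts over 1.8 kb (0.25 to 0.71). By counts the same regions ranged from -0.14 to 0.33. Il1rl1, which encodes the IL-33 receptor, lies within the upstream window. Il18rap, the partner chain that completes the IL-18 receptor, showed 0.14 by counts and 0.15 per kb. Its window meets islands of Il18r1, so the values of the 2 genes are not independent. The island over the Il18r1 promoter gave 7884 of the 15581 WT counts of Il18rap and 6720 of its 11975 dKO counts.

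The class II chains differed from each other. Il10ra (mm9 chr9:45061922-45077232, minus strand), the IL-10-binding chain, held 24368 counts over 118.4 kb in WT (205.8 counts per kb) and 13605 counts over 76.6 kb in dKO (177.6 counts per kb). The log2 ratio was -0.32 by counts (-0.35 to -0.29) but 0.31 per kb (0.28 to 0.34), and 98.1% of genes had a lower ratio per kb. The sign turned because a WT island of 78.2 kb over the gene and its downstream neighbours was 3 islands in dKO, of which only that over the gene, with 7392 counts over 34.8 kb, met the window. When whole merged regions were summed, the log2 ratio was 0.27. All 4 regions were above 0 by both measures. The largest ratio per kb, 0.49, was at -29 kb, with 3476 WT counts over 18 kb and 3561 dKO counts over 18.8 kb, and the promoter region gave 0.18 by counts and 0.19 per kb. Il10rb, the partner chain, showed 1.89 by counts and 0.05 per kb, with 37 kb covered in WT and 131.8 kb in dKO.

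Ifngr1 (mm9 chr10:19311755-19330035, plus strand), the ligand-binding chain of the interferon gamma receptor, held 17688 counts over 50.2 kb in WT (352.4 counts per kb) and 13092 over 52 kb in dKO (251.8 counts per kb). Its log2 ratio was 0.09 by counts (0.05 to 0.12) and 0.03 per kb (0.00 to 0.07). Its promoter region held 15138 and 11122 counts, -0.01 per kb, and the distal upstream region gave 0.16. The partner chain Ifngr2 showed -0.22 by counts and -0.31 per kb.

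**Figure D4:**
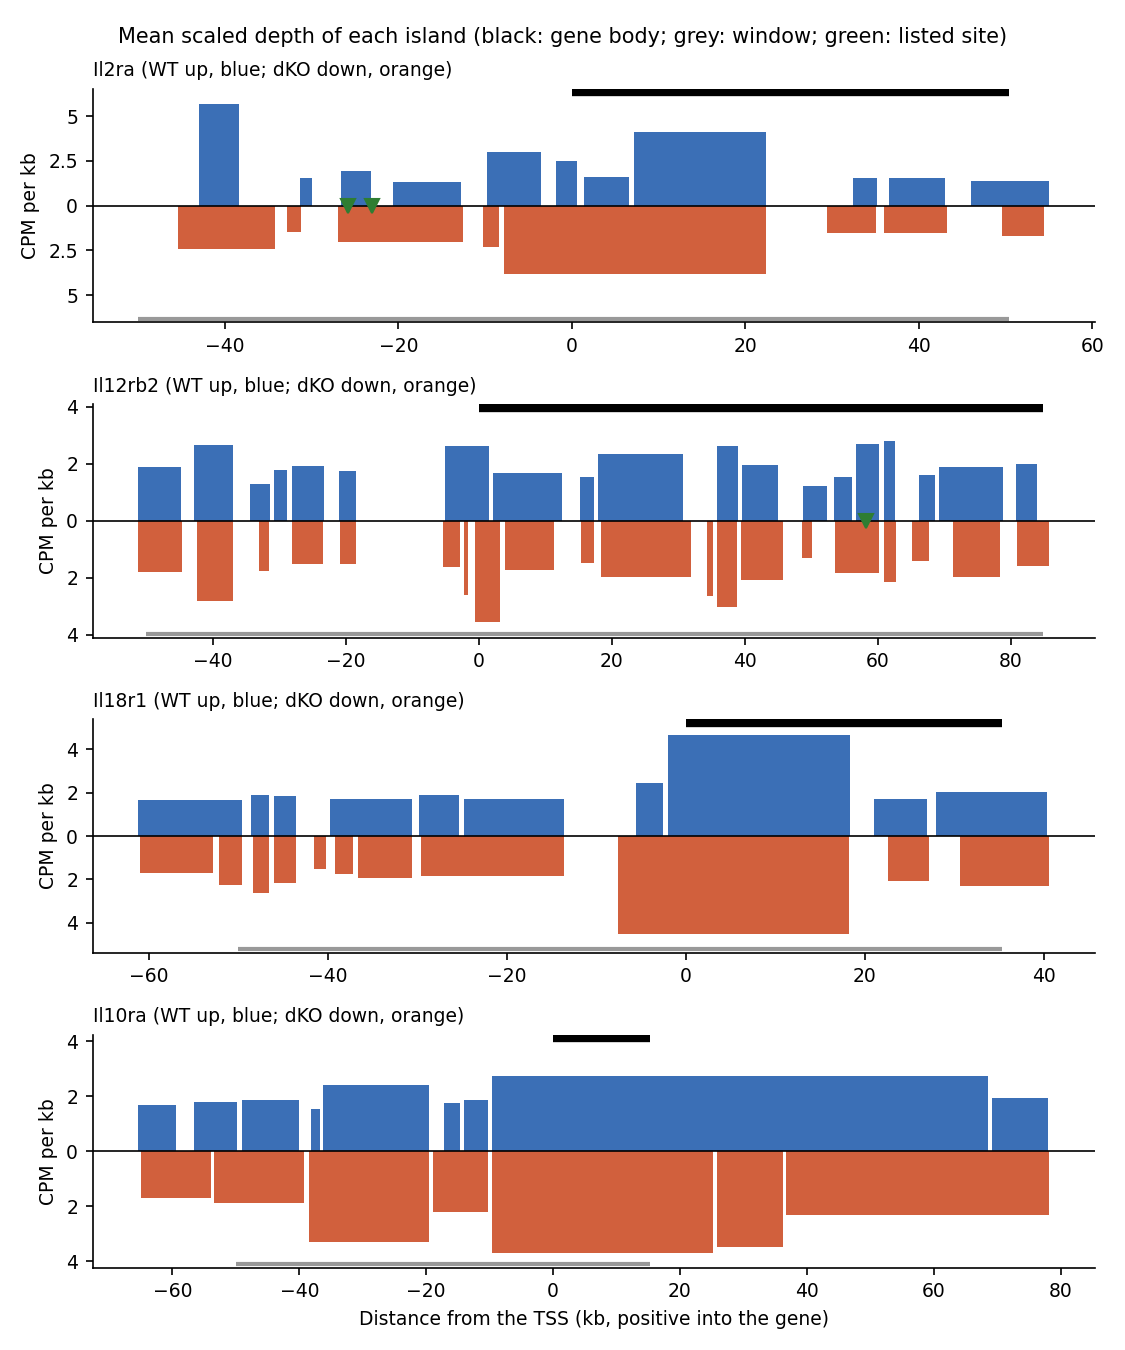
Islands at Il2ra, Il12rb2, Il18r1 and Il10ra by distance from the annotated TSS in kb, drawn as scaled depth (CPM per covered kb), WT upwards in blue and dKO downwards in orange. Black bars are gene bodies, grey bars the windows and green triangles the listed C2 sites. The WT island of 78.2 kb at Il10ra is opposed by 3 dKO islands, and 1 dKO island of 30.2 kb opposes several WT islands at Il2ra.

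To compare places rather than whole windows, overlapping islands of both lists were merged, which gave 59 regions over the 10 windows, 1 of them shared by Il4ra and Il21r. Islands of both lists were present in 52, WT islands alone in 1 (at Il12rb2) and dKO islands alone in 6. By counts, 3 of the 52 were higher in dKO, where 11.2% of all such autosomal regions were, and 5 were lower, where 14.2% were. The higher regions were 2 at Il2ra (0.80 and 0.99) and 1 at Il10ra (0.73). The lower ones were 3 at Il6st (-0.83, -0.73 and -0.60) and 2 at Il12rb2 (-1.09 and -0.65). By counts per kb, 0 were higher, with a background of 1.17%, and 5 were lower, with a background of 4.42%. Of these 5, 4 lay at Il6st (-0.78, -0.66, -0.66 and -0.65) and 1 was the Rbm17 promoter region. The median ratio of the 52 regions was 0.02 by counts and 0.00 per kb, and over all regions it was -0.07 and -0.02. Regions of 1 window are not replicates of each other.

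**Figure D5:**
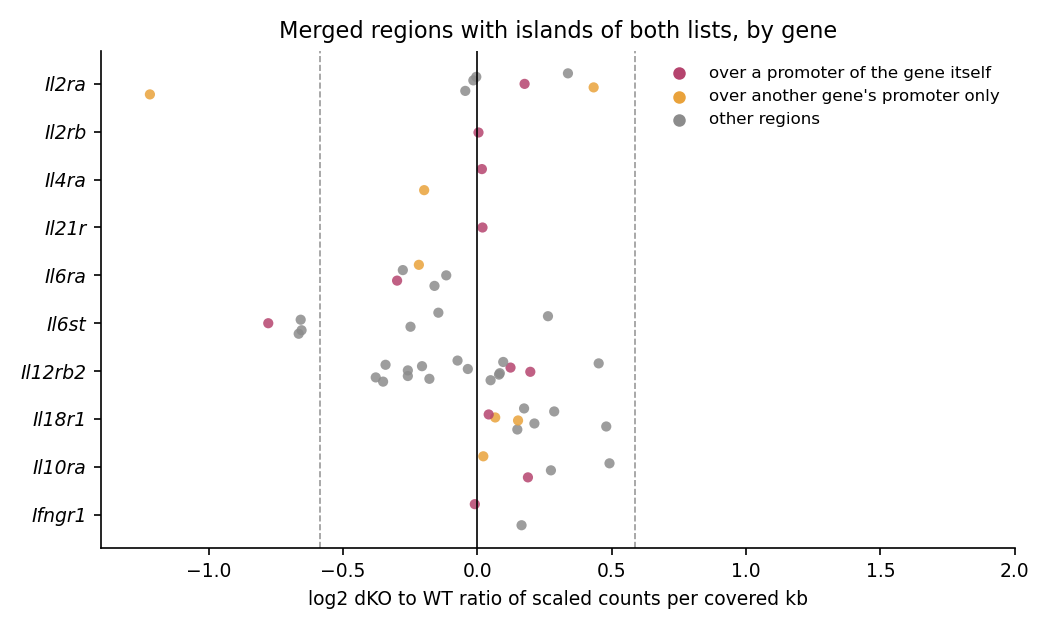
Log2 dKO to WT ratio of scaled counts per covered kb for each merged region with islands of both lists, by gene, with dashed lines at a ratio of 1.5 either way. Colour shows whether a region covers a promoter of the gene itself (red), only of another gene (yellow) or neither (grey), and vertical spread within a gene only separates the points. Among the points, 4 of Il6st and 1 of Il2ra lie left of the lower line, all 5 of Il6ra lie below 0, and all of Il18r1 and Il10ra lie above it.

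The study's lists of genes with altered transcripts in dKO cells name 6 members, and the H3K27ac values were set beside them. The 4 members on the list of higher transcripts, Il2ra, Il12rb2, Il18r1 and Il10ra, had a median log2 ratio of -0.06 by counts and 0.13 per kb. The 2 members on the list of lower transcripts had a median of -0.36 by counts and -0.59 per kb. Singly, Il6ra had -0.07 and -0.29 and Il6st had -0.64 and -0.89. The 4 members on neither list had medians of 0.12 and -0.02, and all genes had -0.01 and -0.16. For the SEs that the study calls dKO-prepotent, again on these libraries, the log2 ratio was 0.14 by counts and 0.08 per kb at Il18r1 and 0.21 and -0.03 at Il10ra.

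The other cytokine receptor genes were read in the same way. Of 46 on autosomes, 42 had islands of both lists. By counts 8 of these were higher in dKO, where 11.7% of all genes were, namely Il15ra (0.63), Il31ra (0.83), Il10rb (1.89), Ifnar2 (1.86), Sigirr (0.93), Il17rb (0.66), Il17rd (0.60) and Il17re (0.91), and per kb these 8 lay between -0.14 and 0.21. Il10rb and Ifnar2 are neighbours and share islands. The Il15ra window met an island over Il2ra in each list, counted whole. That island held 5184 of the 10006 WT counts of Il15ra and 6633 of its 10769 dKO counts, so its value is not that of Il15ra alone. Il17re had the same dKO counts and width as Il17rc (10611 counts over 77.2 kb), and Il17rc showed 0.03 by counts. Il31ra had no promoter island in either list. Its window met the dKO island of 21 kb with 2612 counts at the end of Il6st, where the WT island it met held 1039. By counts 4 were lower, where 10.3% of all genes were. Il7r, the IL-7 receptor alpha chain that keeps naive T cells alive, showed -0.60 by counts and -0.37 per kb, and Il1rap, the common accessory chain of the IL-1 family, showed -0.77 and -0.55. Il5ra showed -0.68 by both measures over 19 kb in each list, but had no promoter island in either. Prlr showed -2.81 by counts and 0.04 per kb. Per kb, 0 of the 42 were higher (0.357% of all genes) and 2 were lower (9.27% of all genes), Il5ra and Crlf2 (-1.65), the latter over 4.4 kb in WT and 15.8 kb in dKO. The median over the 42 was 0.11 by counts and -0.10 per kb. Osmr and Lifr, whose products signal with gp130, had no island in either list. The common gamma chain gene Il2rg, on the X chromosome and so not counted among the 42, showed -0.21 by counts and -0.10 per kb.

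The single call among the members rested close to the ratio that defines it. With the lists scaled by the counts of regions common to both, or so that the median region had a ratio of 1, the log2 ratio of Il6st by counts was -0.57 in each case, short of 0.58, and it was -0.56 with islands at least 50% inside the window and -0.37 with a window reaching 10 kb upstream. By counts or per kb, its log2 ratio was below 0 in 15 of 15 alternatives.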

How the data were processed

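Per the labels and the study's methods, the authors aligned the reads of naive CD8+ T cells to mm9 with Bowtie2 2.2.5, kept those with a mapping quality above 10, pooled the samples of a genotype and called H3K27ac islands with SICER 1.1 (200 bp windows, 400 bp gaps, FDR below 0.01). The deposited lists hold the position and the read count of each island, unscaled. A place without an island has no count, and the inputs have no values of their own.

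Python 3.11.15 with pandas 2.3.3 and numpy 2.4.6 was used. Positions were given from 1. Genes came from GENCODE vM1 on NCBIM37, which is mm9. Every island sharing at least 1 bp with the window from the gene end to 50 kb upstream of the TSS was counted whole, and counts were divided by the total of the list. Islands of the 2 lists sharing 1 bp were merged into regions, pairs of 80% reciprocal overlap were compared as islands of the same width, and a promoter was 1 kb either side of a TSS. Intervals at 95% treat counts as Poisson, and since PCR copies cannot be told from separate molecules they cover counting error only. With 1 pooled value per genotype no p-value was computed. Named within a member were the promoter region, the region with the most counts and those with the largest change among regions of at least 200 counts, and other receptors past a ratio of 1.5, partner chains and neighbours. Some further islands, and the RefSeq start of Il6st, were chosen after their values were seen. Sites, SEs, hubs and transcript lists were taken from the study as positions or names. The members and gene lists were chosen with earlier results of these data known. The steps were tested on simulated data, and alternatives are in the closing section.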

Additional observations from a re-analysis of the deposited data

How the results depend on the processing

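Each result was recomputed under other scalings, windows, overlap rules, island filters and thresholds. By counts, 0 members were higher and 1 lower. The number lower was 0 with the scaling by regions common to both lists, 0 with the scaling to a median region ratio of 1, and 0 with a ratio of 2. With the gene body only, 3 members were higher and 2 lower, and with the gene body to 10 kb upstream 2 were higher, the 1 lower then being Il10ra (-0.73). With islands at least 50% inside the window 2 were higher, the 1 lower then being Il4ra (-1.64). With islands over the promoters of other genes left out, 1 was higher and 2 were lower, over 8 members with a value (none for Il2rb and Il21r). With a smaller ratio than 1.5 as the threshold, 1 (Il4ra) was higher. The number above a ratio of 1 lay between 4 and 6 throughout. Merged regions over the window and prorated counts per covered kb were added after seeing the data and kept 0 higher and 1 lower.

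Of the log2 ratios, by counts or per covered kb, those of Il6st (-1.55 to -0.37) and Il12rb2 (-0.24 to -0.03) stayed below 0 and those of Il2ra (0.02 to 0.47) and Ifngr1 (0.03 to 1.13) above 0 in 15 of 15 alternatives. Il18r1 was above 0 in 14 of 15 and Il6ra in 1 of 15, Il21r in 10 of 14 and Il2rb in 5 of 14. Il10ra (-0.73 to 1.96, above 0 in 6 of 15) and Il4ra (-1.64 to 1.29, above 0 in 9 of 15) had no stable direction, and at each a long island of 1 list faces several of the other. The first scaling moved all ratios by 0.07, the second by 0.07 and scaling by autosomal counts by -0.01. No paired analysis was possible because the lists were called on pooled samples, and for the same reason no replicate could be left out. The depth of the inputs and of single samples was not used here, and scaling by island totals removes any overall difference in enrichment.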

Other observations

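The genes of the cytokines that these receptors bind, and of related ligands, also held islands in naive CD8+ T cells. Of 14 ligand genes 13 had islands of both lists, the exception being Il7, which had none in either. By counts 4 were higher in dKO (11.7% of all autosomal genes were), namely Il4 (1.03), Il6 (1.59), Il10 (0.70) and Il15 (1.56), and 5 were lower (10.3% of all), namely Il2 (-0.62), Il12b (-2.06), Il21 (-2.27), Lif (-1.34) and Osm (-0.65). Counts were few at Il6 (317 in WT, 667 in dKO) and Il15 (455 and 938). The promoters of Il12b, Il21 and Lif lay in an island in WT only. Per kb, 0 were higher (0.357% of all) and 0 lower (9.27% of all), and the 13 lay between -0.31 and 0.14. At Il21, which encodes the ligand of Il21r, WT islands covered 42.8 kb with 6666 counts, and dKO islands 10.2 kb with 964. At Il2 they covered 46 kb with 7891 and 33.2 kb with 3579. At Lif, whose product signals through gp130, WT islands covered 123.6 kb with 28040 counts and dKO islands 51.2 kb with 7744. Ifng, the ligand of Ifngr1, showed 0.15 by counts. The 3 TGF-beta receptor genes lay between -0.32 and -0.18 by counts and between -0.33 and 0.11 per kb.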
